A study of Mus musculus with 10 samples.

Results

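The genes described here encode the proteins that 4 small-molecule inhibitors act on, together with the partners of those proteins: Wdr5, Ash2l, Rbbp5 and Dpy30, the common subunits of the MLL1 methyltransferase complex, Men1 (MENIN), Psip1 (LEDGF), Dot1l, and the BET family genes Brd2 and Brd3. These 9 genes were taken by name from the 24015 genes of a read count table, with no threshold on a measured value, and all 9 passed the filter on low counts. Transcript levels were measured by RNA sequencing in MAF9 cells, cultured C57BL/6 mouse bone marrow cells into which the MLL-AF9 fusion gene was brought by transduction. The medium held serum (15%) and interleukin-3 (10 ng/ml), and the cells received an inhibitor at its half-maximal dose or DMSO, the solvent control, for 4 days. The 5 groups were DMSO, MM-401 (labelled MM401), which blocks binding of MLL1 to WDR5, EPZ5676 (labelled EPZ), a DOT1L inhibitor, MI-2-2 (labelled MI), a MENIN inhibitor, and iBET, a BET bromodomain inhibitor. Each group had 2 libraries, and all 5 groups carried the fusion gene, so no comparison here is with cells that lack it. The paper states that RNA was taken from duplicate biological samples. The labels do not say whether the 2 libraries of a group came from separate cultures, and p-values therefore measure only the spread between these libraries.

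MLL1 is a methyltransferase for lysine 4 of histone H3 and works with a core of shared subunits. WDR5 bridges MLL1 to that core, RBBP5 and ASH2L raise its catalytic activity, and DPY30 binds ASH2L. MENIN and LEDGF attach the N-terminal part of MLL1 to chromatin, and MLL fusion proteins such as MLL-AF9 keep that part. AF9 in turn binds DOT1L, the methyltransferase for H3K79, a mark of transcribed genes. BET proteins read acetylated histones through paired bromodomains and recruit elongation factors. Each of these routes is a drug target in MLL-rearranged leukemia, and the inhibitors act on the proteins, whereas the values below are transcript levels.

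The start regions of 7 of the 9 genes were in the RefSeq promoter table (GRCm38.p6), with 14 annotated windows of 300 bases. The 5 windows below are shown because they belong to genes the results turn on and hold, or lack, matches to start-site motifs found at housekeeping promoters. Capitals mark a match, on either strand, to CCGGAAG (an ETS motif), GCGCA followed by any base and GCGC (an NRF1 motif) or AAGATGGCG (a YY1 motif), and these motifs were chosen after the sequences had been read. Of genes with several windows, one that holds a match is shown. The lines give Brd2 (chr17:34122558-34122857, minus strand), Dot1l (chr10:80754953-80755252, plus strand), Dpy30 (chr17:74316384-74316683, minus strand), Wdr5 (chr2:27514897-27515196, plus strand) and Rbbp5 (chr1:132477117-132477416, plus strand), each 5′ to 3′ on the gene's strand.
Brd2: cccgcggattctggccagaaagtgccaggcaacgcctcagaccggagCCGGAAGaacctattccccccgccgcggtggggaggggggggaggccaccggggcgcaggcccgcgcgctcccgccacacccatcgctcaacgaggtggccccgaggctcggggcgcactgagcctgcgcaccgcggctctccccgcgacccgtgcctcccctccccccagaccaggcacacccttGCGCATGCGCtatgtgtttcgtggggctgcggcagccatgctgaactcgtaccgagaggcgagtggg
Dot1l: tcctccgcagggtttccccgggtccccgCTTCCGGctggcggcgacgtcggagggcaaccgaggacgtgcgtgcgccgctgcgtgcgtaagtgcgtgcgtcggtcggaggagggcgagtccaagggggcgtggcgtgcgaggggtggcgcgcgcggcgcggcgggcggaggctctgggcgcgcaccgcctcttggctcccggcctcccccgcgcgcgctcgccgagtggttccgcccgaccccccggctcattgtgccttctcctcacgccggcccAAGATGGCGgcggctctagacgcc
Dpy30: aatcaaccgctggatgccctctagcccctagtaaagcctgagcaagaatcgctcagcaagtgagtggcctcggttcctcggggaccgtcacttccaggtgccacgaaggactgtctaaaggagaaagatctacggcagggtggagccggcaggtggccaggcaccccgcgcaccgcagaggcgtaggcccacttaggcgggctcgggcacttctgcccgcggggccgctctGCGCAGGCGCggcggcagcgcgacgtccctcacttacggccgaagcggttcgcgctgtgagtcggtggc
Wdr5: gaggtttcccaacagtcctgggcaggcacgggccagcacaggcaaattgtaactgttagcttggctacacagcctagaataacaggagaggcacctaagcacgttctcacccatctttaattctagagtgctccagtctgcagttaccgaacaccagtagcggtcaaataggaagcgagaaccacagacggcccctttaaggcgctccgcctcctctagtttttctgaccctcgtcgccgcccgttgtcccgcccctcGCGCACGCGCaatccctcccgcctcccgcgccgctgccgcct
Rbbp5: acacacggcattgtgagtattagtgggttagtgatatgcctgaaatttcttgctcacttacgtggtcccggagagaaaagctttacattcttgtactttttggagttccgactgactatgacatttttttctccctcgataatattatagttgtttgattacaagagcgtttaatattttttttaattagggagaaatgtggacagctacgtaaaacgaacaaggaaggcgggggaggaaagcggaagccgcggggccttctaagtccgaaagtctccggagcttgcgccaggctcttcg
The Brd2 window held an ETS match beginning at position -203 from the start site and an NRF1 match at -17, and the Dpy30 window held an NRF1 match at -19. Wdr5 had an NRF1 match at position 8, and Dot1l had an ETS match at -222 and a YY1 match at 26. The Rbbp5 window held none of the 3. Among 32851 mouse promoter windows of the same length, 8.86% held the ETS letters, 4.6% the NRF1 letters and 1.4% the YY1 letters. In the 5 windows shown no marked match overlapped another. Of the windows not shown, those of Brd3 and Men1, another of Brd2 and another of Dpy30 held none of the 3 motifs. The remaining Brd2 and Dpy30 windows held a match. Since motifs and windows were picked with the sequences known, these shares cannot show an enrichment. The Dot1l window had 49 CpG dinucleotides, more than in 99% of all windows, whereas Rbbp5 had 16 and the median window 7. A match is a description of letters only, and no binding was measured in these libraries.

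The libraries held between 20394762 and 29473127 counted reads. The labelled cell origin was checked on marker genes: the hematopoietic genes Ptprc, Spi1 and Vav1 together reached 868 to 1670 CPM (read counts scaled to the total of the library) in every library, and the B-cell, T-cell and erythroid lists summed to at most 5.27 CPM, with Pax5, Cd3e, Hba-a1 and Hbb-b1 at 0 in all 10 libraries. Megakaryocyte genes summed to at most 5.84 CPM and stromal genes to at most 17.1 CPM, nearly all of it Col1a1, with Col1a2 at 0. The 2 DMSO libraries stood further apart than the libraries of any inhibitor, with 19.3% of 12971 tested genes more than 2-fold apart against 3.42% to 6.07%. DMSO replicate 2 also had 3630 reads on Y-linked genes and 4.76 CPM of Xist, whereas the other 9 libraries had at most 2 such reads and 928 to 3050 CPM of Xist. By these genes DMSO replicate 2 read as male cells and the other 9 libraries as female cells. The part of this difference in the results was not tested, and comparisons of the 9 genes with DMSO are therefore given also without a DMSO library, beside differences among the inhibitors. Those differences hold no DMSO level, but the DMSO libraries entered the spread that all tests share, so the 8 inhibitor libraries were also fitted alone.

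All 9 genes were transcribed in every library at moderate to high levels, and no agent switched any of them off. Levels are CPM scaled by TMM (trimmed mean of M-values), and they are compared between genes only after division by the length of the merged exons (RPKM). On that scale Brd2 (51.6 RPKM), Dpy30 (50.1) and Wdr5 (49.8) were highest as means of the 10 libraries, and these 3 means lay closer together than the SD of Wdr5 over libraries (5.19 RPKM). Over the longest transcript they were 86.7, 72.8 and 62 RPKM. The other 6 genes lay between 13.4 RPKM (Psip1) and 19.9 RPKM (Rbbp5). By fold, Ash2l moved most with the choice of length, from 16.9 RPKM over merged exons to 41 over its longest transcript. Between the lowest and the highest library the level varied from 1.38-fold for Brd3 to 2.66-fold for Ash2l.

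**Figure D1:**
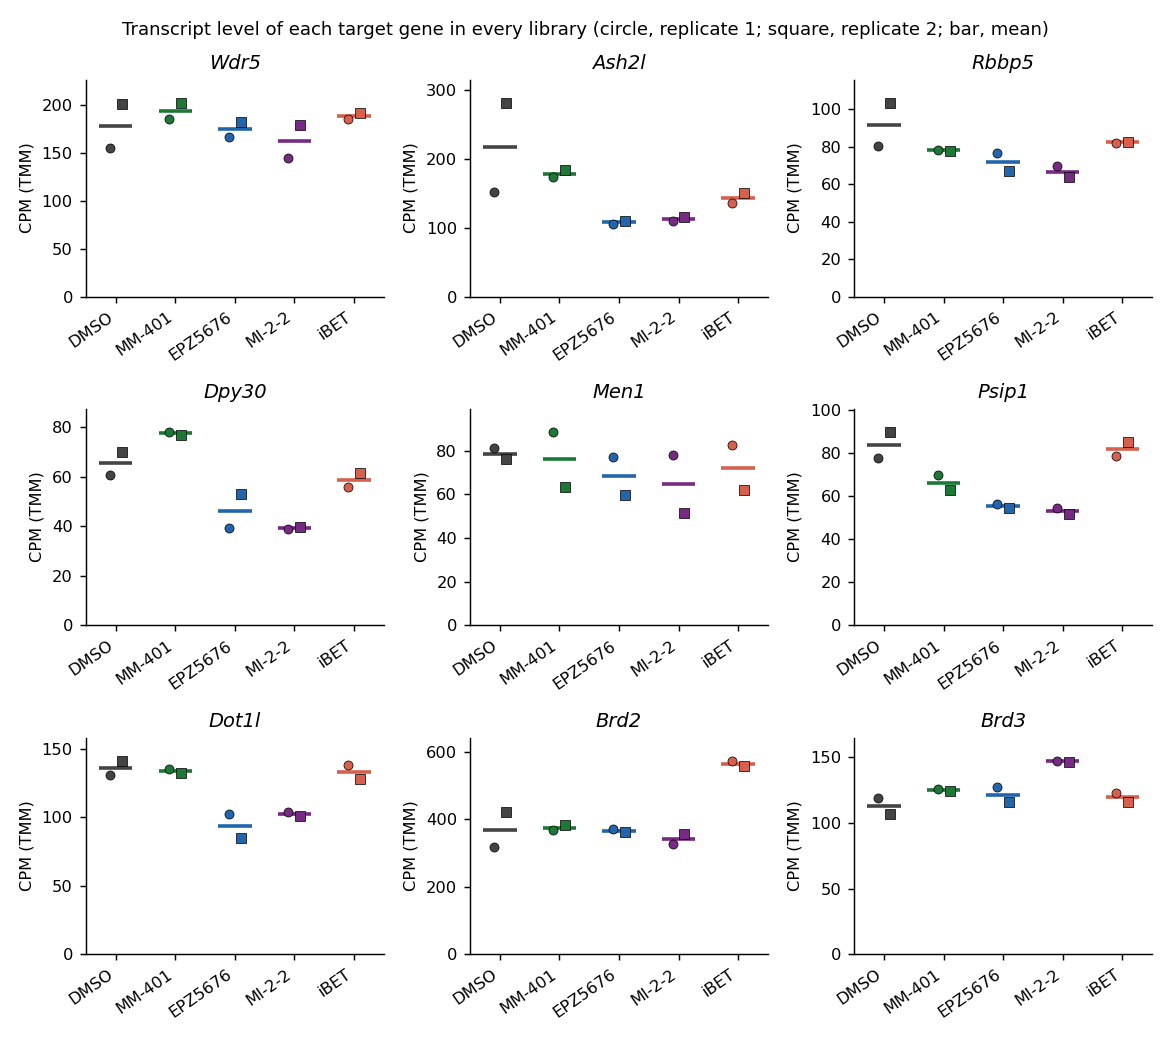
Transcript level (CPM, TMM-scaled, linear axis from 0) of each of the 9 genes in every library, with a circle for replicate 1, a square for replicate 2 and a bar for the mean of each agent. Ash2l, Dpy30, Psip1 and Dot1l were lowest under EPZ5676 and MI-2-2, Brd2 was highest under iBET (573.7 and 556.8 CPM), and the DMSO libraries were far apart for Ash2l (152.7 and 281.5 CPM).

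The first question was whether an inhibitor moved the transcripts of its own target. With MM-401 no subunit of the WDR5 core passed the test against DMSO. Wdr5 had 154.5 and 200.3 CPM in the DMSO libraries, 184.9 and 201.9 with MM-401, 166.9 and 182.2 with EPZ5676, 144.8 and 179.3 with MI-2-2, and 185.1 and 191.8 with iBET. These ranges overlapped for every neighbouring pair in the order of the group means, and the gene passed none of the 8 comparisons made. Against DMSO, MM-401 gave a log2 fold change of 0.12 for Wdr5 (SE 0.16, adjusted p = 0.821, edgeR quasi-likelihood test with Benjamini-Hochberg adjustment over all genes), or -0.05 without DMSO replicate 1 and 0.31 without DMSO replicate 2.

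Ash2l, whose product activates the MLL1 catalytic domain, was the gene of this set with the largest fall. Its level was 152.7 and 281.5 CPM in DMSO, 173.4 and 183.4 with MM-401, 135.5 and 150.4 with iBET, 109.8 and 115.1 with MI-2-2, and 105.8 and 110.5 with EPZ5676. The MI-2-2 and EPZ5676 libraries lay below the other 6, and their own ranges overlapped. The share of all genes separated in this way was not counted. Ash2l fell 2.01-fold with EPZ5676 (log2 fold change -1.0, SE 0.24, adjusted p = 0.0148 by edgeR) and 1.93-fold with MI-2-2 (-0.95, SE 0.24, adjusted p = 0.0167). The size depended on the DMSO libraries, since the EPZ5676 value was -1.38 without DMSO replicate 1 and -0.47 without DMSO replicate 2, and the MI-2-2 value -1.32 and -0.41. Both calls were lost when either library of the inhibitor was left out (adjusted p between 0.0706 and 0.083 by edgeR). With MM-401 the value was -0.28 (SE 0.24, adjusted p = 0.711), and it turned from -0.65 (adjusted p = 0.0132) without DMSO replicate 1 to 0.21 (adjusted p = 0.289) without DMSO replicate 2. The iBET value was -0.60 (adjusted p = 0.132, edgeR), or -0.97 (adjusted p = 0.00124) without DMSO replicate 1.

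Rbbp5, the partner of ASH2L in the core, had 80.3 and 103.3 CPM in DMSO, 81.9 and 82.69 with iBET, 78.41 and 77.68 with MM-401, 76.65 and 67.13 with EPZ5676, and 69.63 and 63.59 with MI-2-2. The range was narrow, and of the neighbours in this order iBET and MM-401, and MM-401 and EPZ5676, did not overlap. Such gaps were not counted over all genes. Rbbp5 fell with MI-2-2 (log2 fold change -0.46, SE 0.14, adjusted p = 0.0311, edgeR), a call that held in 1 of the 4 fits that left out a library and had an adjusted p of 0.179 (-0.23) without DMSO replicate 2. With MM-401 the value was -0.23 (SE 0.14, adjusted p = 0.588), or -0.40 and -0.06 without DMSO replicate 1 and replicate 2.

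Dpy30, the small subunit that docks on ASH2L, differed between the inhibitors. It had 60.86 and 69.9 CPM in DMSO, 78.08 and 76.97 with MM-401, 55.95 and 61.38 with iBET, 39.49 and 53.2 with EPZ5676, and 38.89 and 39.89 with MI-2-2. The MM-401 libraries lay above all others, and all 4 EPZ5676 and MI-2-2 libraries lay below the other 6. The share of all genes with either separation was not counted, so both are descriptions of levels only. Against DMSO, Dpy30 fell with MI-2-2 (log2 fold change -0.73, SE 0.15, adjusted p = 0.008, edgeR), and between -0.82 and -0.59 in the 4 fits without 1 library, all past the threshold. It also fell with EPZ5676 (-0.50, SE 0.15, adjusted p = 0.0374, edgeR), but not past the threshold without DMSO replicate 2 (-0.37, adjusted p = 0.115) or without EPZ5676 replicate 1 (-0.29, adjusted p = 0.171). The MM-401 value against DMSO was 0.25 (SE 0.15, adjusted p = 0.606), and 0.15 and 0.33 without DMSO replicate 1 and replicate 2.

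MI-2-2 targets MENIN, and LEDGF is a partner of MENIN on chromatin. Men1, which encodes MENIN, had 81.07 and 76.04 CPM in DMSO, 88.64 and 63.44 with MM-401, 82.56 and 61.91 with iBET, 76.94 and 59.88 with EPZ5676, and 78 and 51.57 with MI-2-2. All neighbouring groups overlapped, and replicate 1 exceeded replicate 2 in 5 of 5 groups, by 0.09 on the log2 scale in DMSO and by 0.36 to 0.60 with the inhibitors. Against DMSO the MI-2-2 value was -0.28 (SE 0.25, adjusted p = 0.405, edgeR), between -0.60 and -0.01 in the 4 fits without 1 library, and Men1 passed none of the 8 comparisons. With the replicate number as a block the MI-2-2 value was -0.31 (adjusted p = 0.0783, edgeR).

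Psip1 encodes LEDGF, the chromatin reader that binds MENIN and MLL1 together. It had 77.49 and 89.75 CPM in DMSO, 78.58 and 85.18 with iBET, 69.83 and 62.6 with MM-401, 56.37 and 54.51 with EPZ5676, and 54.55 and 51.87 with MI-2-2. The libraries therefore fell into an upper range (DMSO and iBET), MM-401 below it, and EPZ5676 with MI-2-2 lowest and overlapping. This order describes levels only, since the share of all genes with it was not counted. Psip1 fell 1.57-fold with MI-2-2 (log2 fold change -0.65, SE 0.12, adjusted p = 0.00441, edgeR) and 1.51-fold with EPZ5676 (-0.59, SE 0.12, adjusted p = 0.00693). Both calls held in all 4 fits without 1 library, with values of -0.75 and -0.51 for MI-2-2 and -0.69 and -0.46 for EPZ5676 without DMSO replicate 1 and replicate 2.

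Dot1l, the target of EPZ5676, was lower with that inhibitor and with the MENIN inhibitor. It had 130.8 and 141.4 CPM in DMSO, 135.3 and 132.1 with MM-401, 138 and 128 with iBET, 103.9 and 101.1 with MI-2-2, and 102.7 and 85.07 with EPZ5676. DMSO, MM-401 and iBET overlapped with each other, and so did EPZ5676 and MI-2-2, with a gap between the 2 sets. The share of all genes with such a gap was not counted. Dot1l fell 1.45-fold with EPZ5676 (log2 fold change -0.54, SE 0.12, adjusted p = 0.0105, edgeR), and the value was -0.59 and -0.45 without DMSO replicate 1 and replicate 2, and -0.40 (adjusted p = 0.0635) without EPZ5676 replicate 2. With MI-2-2 it fell by 0.41 on the log2 scale (SE 0.12, adjusted p = 0.027, edgeR), but this call held in only 1 of 4 fits without a library, the value being -0.46 (adjusted p = 0.0212) without DMSO replicate 1 and -0.32 (adjusted p = 0.112) without DMSO replicate 2.

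Brd2, which encodes a broadly expressed BET protein, rose with iBET. It had 317.1 and 422.5 CPM in DMSO, 367.7 and 382.7 with MM-401, 372.1 and 361.4 with EPZ5676, 326.5 and 356.4 with MI-2-2, and 573.7 and 556.8 with iBET. Both iBET libraries lay above the other 8, as was the case for 11.6% of the genes tested. The level with iBET was 1.53-fold that in DMSO (log2 fold change 0.61, SE 0.15, adjusted p = 0.0358, edgeR), with 0.42 without DMSO replicate 1 and 0.83 without DMSO replicate 2. Without either iBET library the call was lost, at 0.60 (adjusted p = 0.165) and 0.64 (adjusted p = 0.147). Against the mean of the other 3 inhibitors the difference was 0.65 (SE 0.12, adjusted p = 0.0054, edgeR), at 0.63 to 0.67 in 8 fits without 1 library, with adjusted p-values of 0.0541 and 0.0519 in the pair of fits that lacked an iBET library. With the 8 inhibitor libraries fitted alone it was 0.61 (SE 0.08, adjusted p = 0.000628, edgeR).

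Brd3 is the other BET gene of the set. It had 119 and 106.8 CPM in DMSO, 125.4 and 124.4 with MM-401, 126.8 and 115.9 with EPZ5676, 147.1 and 146.2 with MI-2-2, and 122.7 and 115.9 with iBET. The MI-2-2 libraries lay above the other 8, but the share of all genes that did so was not counted. The iBET value against DMSO was 0.08 (SE 0.11, adjusted p = 0.638, edgeR), at 0.17 and 0.00 without DMSO replicate 1 and replicate 2. Brd3 rose 1.3-fold with MI-2-2 (log2 fold change 0.38, SE 0.11, adjusted p = 0.0221, edgeR), a call that held in 1 of 4 fits without a library, was 0.46 (adjusted p = 0.00969) without DMSO replicate 1, 0.34 (adjusted p = 0.0525) without DMSO replicate 2 and 0.23 (adjusted p = 0.171) with total-count scaling.

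The number of genes of the set that passed against DMSO is given beside the share of all tested genes that did. With EPZ5676, 4 of the 9 genes passed the test, all lower (Ash2l, Dpy30, Psip1 and Dot1l), where 38.1% of tested genes passed and 19.4% were lower. With MI-2-2, 6 of 9 passed, namely the same 4 genes and Rbbp5 lower and Brd3 higher, where 41.4% of genes passed, 21.2% lower and 20.2% higher. With iBET, 1 of 9 passed (Brd2), where 13.9% of genes passed, 6.38% higher, and 3088 genes (23.8%) in place of 1806 passed when the replicate number was a block. With MM-401, 0 of 9 passed, as did 0% of all genes by edgeR. At an unadjusted p below 0.05 the MM-401 counts were 1 gene of the set (Psip1, log2 fold change -0.34, adjusted p = 0.36) and 1450 genes in all (11.2%), and DESeq2 called 286 genes and 0 of the 9. The 4 comparisons share the DMSO libraries.

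**Figure D2:**
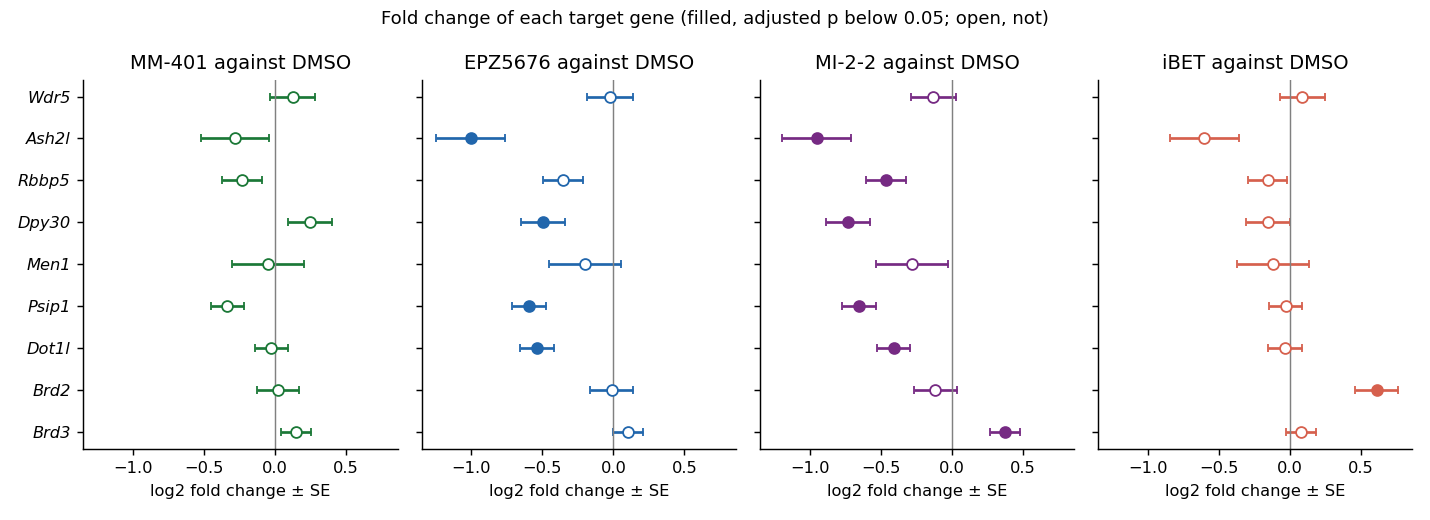
Log2 fold change with its standard error for each of the 9 genes in each inhibitor against DMSO, with filled points for an adjusted p below 0.05 and open points otherwise. MM-401 has no filled point, EPZ5676 has 4 and MI-2-2 has 5 on the negative side, MI-2-2 has Brd3 on the positive side, and iBET has only Brd2 (0.61).

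The median absolute change of the 9 genes was smaller than that of all tested genes, and the signed medians were lower with EPZ5676 and MI-2-2. By mean level the 9 genes lay above 64.7% (Dpy30) to 97.4% (Brd2) of tested genes, and the medians were not matched for level. The median absolute log2 fold change was 0.35 for the 9 genes with EPZ5676 against 0.55 over all tested genes, 0.41 against 0.59 with MI-2-2, 0.12 against 0.37 with iBET and 0.15 against 0.21 with MM-401. The signed medians were -0.35 with EPZ5676 and -0.41 with MI-2-2, beside -0.06 and -0.05 over all genes. With total-count scaling the medians over all genes were -0.23 and -0.20 for these 2 inhibitors. The medians of the 9 genes with that scaling were -0.51 with EPZ5676 (the Rbbp5 value) and -0.56 with MI-2-2 (the Dot1l value). By a 2-fold threshold on mean CPM, as the study used on RPKM ratios, Ash2l was the only one of the 9 to pass with EPZ5676 and with MI-2-2, and 0 passed with MM-401 or iBET, where 26.8%, 27.5%, 6.44% and 14.9% of the genes considered passed with EPZ5676, MI-2-2, MM-401 and iBET.

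Each inhibitor was also compared with the mean of the other 3. Dpy30 was the 1 gene of 9 that passed for MM-401 (log2 difference 0.71, SE 0.12, adjusted p = 0.00649, edgeR), where 26.8% of all genes passed and 15.1% were higher. It held in 6 of 8 fits without a library and was lost, at 0.70 and 0.72, without either MM-401 library (adjusted p = 0.0757 and 0.0755). With the replicate number as a block 3 of the 9 passed for MM-401, where 37.3% of all genes did, with adjusted p of 0.00244 for Dpy30, 0.0289 for Ash2l and 0.0319 for Dot1l by edgeR. The same 3 genes passed with the 8 inhibitor libraries fitted alone, where 43.3% of all genes did, with Ash2l at 0.60 (adjusted p = 0.000768, edgeR). For EPZ5676 the 1 gene was its target Dot1l, lower (log2 difference -0.38, SE 0.10, adjusted p = 0.029, edgeR), where 24.0% of genes passed and 10.3% were lower, and this held in 1 of 8 fits without a library and in the fit of inhibitor libraries alone (-0.37, adjusted p = 0.0207).

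For MI-2-2, 3 of 9 passed, 2 of them lower, where 26.4% of all genes passed and 11.3% were lower. Dpy30 was lower (log2 difference -0.60, SE 0.13, adjusted p = 0.0153, edgeR) and was lost only without either MI-2-2 library (adjusted p = 0.11 and 0.109). Psip1 (-0.33, adjusted p = 0.0414) and Brd3 (0.27, adjusted p = 0.0494) passed narrowly and each held in 0 of 8 fits without a library, but both passed in the fit of inhibitor libraries alone (adjusted p = 0.0157 and 0.024, edgeR). For iBET, 3 of 9 were higher, where 33.0% of genes passed and 16.7% were higher. Beside Brd2 these were Psip1 (0.50, SE 0.09, adjusted p = 0.00621, edgeR), lost only without iBET replicate 2 (adjusted p = 0.0862), and Dot1l (0.29, adjusted p = 0.0494), which held in 1 of 8 such fits and had an adjusted p of 0.06 with inhibitor libraries alone.

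The levels placed EPZ5676 beside MI-2-2, below both MM-401 and iBET, for several genes. MM-401 and iBET did not overlap each other in Ash2l, Rbbp5, Dpy30, Psip1, Brd2 or Brd3. The share of all genes in which they did not overlap was not counted. In 6 of the 9 genes (Wdr5, Ash2l, Rbbp5, Dpy30, Psip1 and Dot1l) all 4 EPZ5676 and MI-2-2 libraries lay below all 4 MM-401 and iBET libraries, as 24.5% of all genes did. The log2 difference between the means of these pairs was -0.66 for Dpy30 (SE 0.11), -0.53 for Ash2l (SE 0.17), and -0.44 each for Dot1l and Psip1 (SE 0.08). For Brd2 it was -0.38 (SE 0.11), which includes the high iBET libraries. This grouping was read from the levels of the same libraries, so it is a description and no test of it is given.

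The summed levels of maturing myeloid and of progenitor genes lay furthest from DMSO with the same pair of inhibitors. The summed level of maturing myeloid genes (5 of the 6 listed were in the table) was 338 to 579 CPM in DMSO, 796 to 966 with MM-401 and 335 to 372 with iBET, against 5040 to 6780 with EPZ5676 and 6130 to 7460 with MI-2-2. That of 7 progenitor genes was 10300 to 13300 CPM in DMSO, 10900 to 11000 with MM-401, 6050 to 7140 with iBET, 3230 to 3400 with EPZ5676 and 2230 to 3010 with MI-2-2. The granule genes Mpo, Elane, Prtn3 and Ctsg made up most of that sum, and single genes differed. Csf2rb had a mean of 307 CPM in DMSO, 614 with iBET, 599 with MI-2-2 and 571 with EPZ5676. Kit had 117 CPM in DMSO and 118 with EPZ5676. Mpo and Elane were lowest with iBET (15.8 and 580 CPM, against 33.6 and 803 with MI-2-2 and 247 and 1240 with EPZ5676). Ctsg had 2060 CPM in DMSO and 3630 with iBET. Ltf and Itgam made up most of the maturing sum with EPZ5676 (3730 and 2050 CPM) and MI-2-2 (4330 and 2310 CPM). Ly6c1 had 1.6 CPM in DMSO, 1.07 with EPZ5676 and 11 with MI-2-2. The sum of Hoxa9, Hoxa10 and Meis1, most of it from the Hoxa genes, did not follow the pair. It was 609 to 852 CPM in DMSO, 776 to 787 with MM-401, 389 to 395 with EPZ5676, 608 to 738 with MI-2-2 and 1050 to 1140 with iBET. Meis1 alone did follow it, with means of 1.14 CPM with EPZ5676 and 0.841 with MI-2-2. Its means were 65.7 CPM in DMSO, 40 with MM-401 and 55.5 with iBET. Hoxa9 was also lowest with the pair (265 and 363 CPM, against 435 in DMSO). Hoxa10 had 126 CPM with EPZ5676 but 309 with MI-2-2, against 230 in DMSO. Stromal genes summed to 5.98 to 17.1 CPM with EPZ5676 and 2.94 to 10.5 CPM with MI-2-2, against at most 0.776 CPM in the other libraries, and megakaryocyte genes to 3.66 to 5.32 CPM and 2.75 to 5.84 CPM, against at most 2.45. Their part in the results for Ash2l, Dpy30, Psip1, Dot1l, Rbbp5 and Brd3 was not tested. In such bulk samples fewer cells of a type and less RNA per cell cannot be told apart.

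Within a library, the ratio of reads of one gene to another does not depend on scaling. The ratio of Brd2 to Brd3 reads was 4.68 and 4.80 with iBET, 2.66 and 3.96 in DMSO, 2.93 and 3.07 with MM-401, 2.93 and 3.12 with EPZ5676, and 2.22 and 2.44 with MI-2-2, so that both iBET libraries lay above and both MI-2-2 libraries below all others. The subunits of the WDR5 core also shifted against one another. The ratio of Ash2l to Wdr5 reads was 0.988 and 1.41 in DMSO, 0.938 and 0.909 with MM-401, 0.732 and 0.784 with iBET, 0.758 and 0.642 with MI-2-2, and 0.634 and 0.606 with EPZ5676. Dpy30 to Wdr5 was 0.394 and 0.349 in DMSO and 0.422 and 0.381 with MM-401, against 0.302 and 0.32 with iBET, 0.237 and 0.292 with EPZ5676 and 0.269 and 0.222 with MI-2-2. Rbbp5 to Wdr5 was 0.52 and 0.516 in DMSO and between 0.355 and 0.481 in all 8 inhibitor libraries. These ratios are given as descriptions, without a test.

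**Figure D3:**
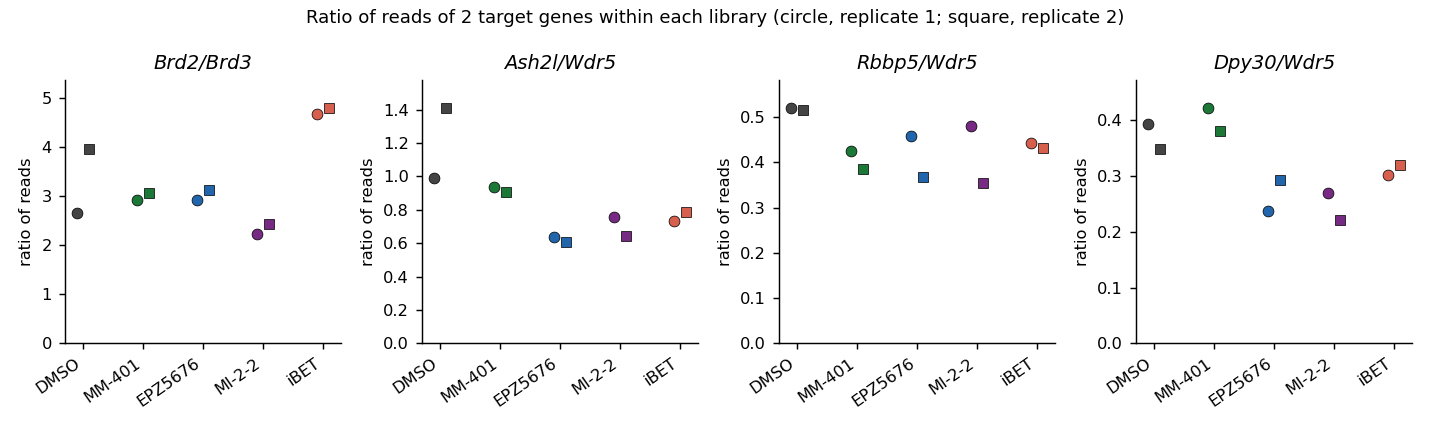
Ratio of the reads of a pair of genes within each library, on linear axes from 0, with a circle for replicate 1 and a square for replicate 2 of each agent. The ratio of Brd2 to Brd3 is highest in the iBET libraries (4.68 and 4.80), and those of Ash2l and Dpy30 to Wdr5 are low with EPZ5676 and MI-2-2.

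Other genes of the same pathways were counted from 5 lists of partners. The counts stand beside the shares of all tested genes that passed against DMSO, which were 38.1% with EPZ5676, 41.4% with MI-2-2, 13.9% with iBET and 0% with MM-401, where 0 genes of each list passed. Among 17 MLL-family methyltransferases and other partners, 2 rose and 3 fell with EPZ5676, 2 rose and 3 fell with MI-2-2, and 0 passed with iBET. Tasp1, which encodes the protease that cleaves MLL1 into its active subunits, had 20 and 26.8 CPM in DMSO, 19.9 and 20.3 with MM-401, 17.8 and 22 with iBET, 9.36 and 10.4 with EPZ5676, and 9.28 and 10.7 with MI-2-2. Both low groups lay below all other libraries, a separation not counted over all genes. The log2 fold changes against DMSO were -1.25 (SE 0.20, adjusted p = 0.00305, edgeR) and -1.23 (SE 0.20, adjusted p = 0.00295), or -1.0 and -0.97 without DMSO replicate 2. Setd1a, a related H3K4 methyltransferase, fell with EPZ5676 (-0.57, adjusted p = 0.0139) and MI-2-2 (-0.48, adjusted p = 0.0254), but not past the threshold without DMSO replicate 2 (-0.36, adjusted p = 0.051, and -0.26, adjusted p = 0.13, edgeR). Kmt2c, which methylates H3K4 at enhancers, rose with EPZ5676 (0.58, adjusted p = 0.0312, or 0.0966 without DMSO replicate 2) and with MI-2-2 (0.69, adjusted p = 0.0148, edgeR).

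Of 8 partners of MENIN and LEDGF, 1 rose and 2 fell under each of EPZ5676 and MI-2-2, and 2 fell under iBET. Jund, a transcription factor that binds MENIN, had 74.4 and 50.8 CPM in DMSO, 170 and 134 with EPZ5676, 209 and 201 with MI-2-2, 82.9 and 57.4 with MM-401, and 72.5 and 55.4 with iBET. It rose with EPZ5676 (log2 fold change 1.28, SE 0.25, adjusted p = 0.00649, edgeR) and with MI-2-2 (1.71, SE 0.25, adjusted p = 0.00202). Hdgf, a relative of LEDGF, fell under MI-2-2 (-0.97, adjusted p = 0.00314), EPZ5676 (-0.84, adjusted p = 0.00591) and iBET (-0.69, adjusted p = 0.0308, edgeR). Cdca7l, a LEDGF-binding protein, fell with EPZ5676 (-0.55, adjusted p = 0.00757), MI-2-2 (-0.94, adjusted p = 0.00103) and iBET (-0.45, adjusted p = 0.0382, edgeR). Without DMSO replicate 1 the iBET value of Cdca7l was -0.34 (adjusted p = 0.0594), and the other 7 of these calls held without either DMSO library.

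Of 14 DOT1L partners and H2B ubiquitylation genes, 1 rose and 3 fell with EPZ5676, 1 rose and 4 fell with MI-2-2, and 2 rose with iBET. Ctr9, a subunit of the PAF1 elongation complex, had 117 and 179 CPM in DMSO, 116 and 107 with MM-401, 86.1 and 87.4 with EPZ5676, 72.1 and 71.8 with MI-2-2, and 185 and 179 with iBET. It fell with EPZ5676 (log2 fold change -0.77, adjusted p = 0.0129) and MI-2-2 (-1.04, adjusted p = 0.00377, edgeR), or by 0.41 and 0.67 without DMSO replicate 2. With iBET it exceeded the mean of the other inhibitors by 1.04 (adjusted p = 0.00158, edgeR). Its complex partner Leo1 fell with EPZ5676 (-0.65, adjusted p = 0.00539) and MI-2-2 (-0.48, adjusted p = 0.0158, or 0.0603 without DMSO replicate 2). Mllt1, which encodes the AF9 relative ENL, fell with EPZ5676 (-0.39, adjusted p = 0.0488, or 0.161 without DMSO replicate 2) and MI-2-2 (-0.55, adjusted p = 0.0119, edgeR). Paf1 (0.52, adjusted p = 0.0469) and Rtf1 (0.59, adjusted p = 0.0497, edgeR), from the same elongation complex, rose with iBET, but not past the threshold without DMSO replicate 1 (adjusted p = 0.083 and 0.0925).

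Of 12 BET partners and relatives, 3 rose with EPZ5676 and 3 with MI-2-2, and 1 fell with iBET. The same 3 genes rose with both: Cdk9, the kinase of the elongation factor P-TEFb (log2 fold change 0.41, adjusted p = 0.0198, and 0.44, adjusted p = 0.0135), Brd9 (0.55, adjusted p = 0.016, and 0.47, adjusted p = 0.0262) and Whsc1l1 (0.52, adjusted p = 0.0269, and 0.59, adjusted p = 0.0154, edgeR). Of these 6 values 1 was lost without a DMSO library, that of Whsc1l1 with EPZ5676 (adjusted p = 0.0738 without DMSO replicate 2). Jmjd6, which encodes a partner of BET proteins, fell with iBET (-0.71, adjusted p = 0.0445), but not past the threshold without either DMSO library (adjusted p = 0.0508 and 0.0659, edgeR). Hexim1, an inhibitor of P-TEFb, had 212 and 204 CPM with iBET against 73.6 to 147 in the other 8 libraries. The DMSO libraries themselves had 73.6 and 147 CPM of Hexim1. Its value against DMSO was 0.92 (adjusted p = 0.0618, edgeR), or 0.51 and 1.5 without DMSO replicate 1 and replicate 2. Against the other 3 inhibitors Hexim1 was higher by 0.99 (SE 0.21, adjusted p = 0.01, edgeR). Of 5 H3K4 demethylases, Kdm1a fell with EPZ5676 (-0.69, adjusted p = 0.0197, or 0.0522 without DMSO replicate 1), where the next gene was Kdm5a (0.22, adjusted p = 0.154). Kdm1b rose with iBET (0.85, adjusted p = 0.0382, edgeR, or 0.595 and 1.164 without DMSO replicate 1 and replicate 2), where the next was Kdm5b (-0.77, adjusted p = 0.22).

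**Figure D4:**
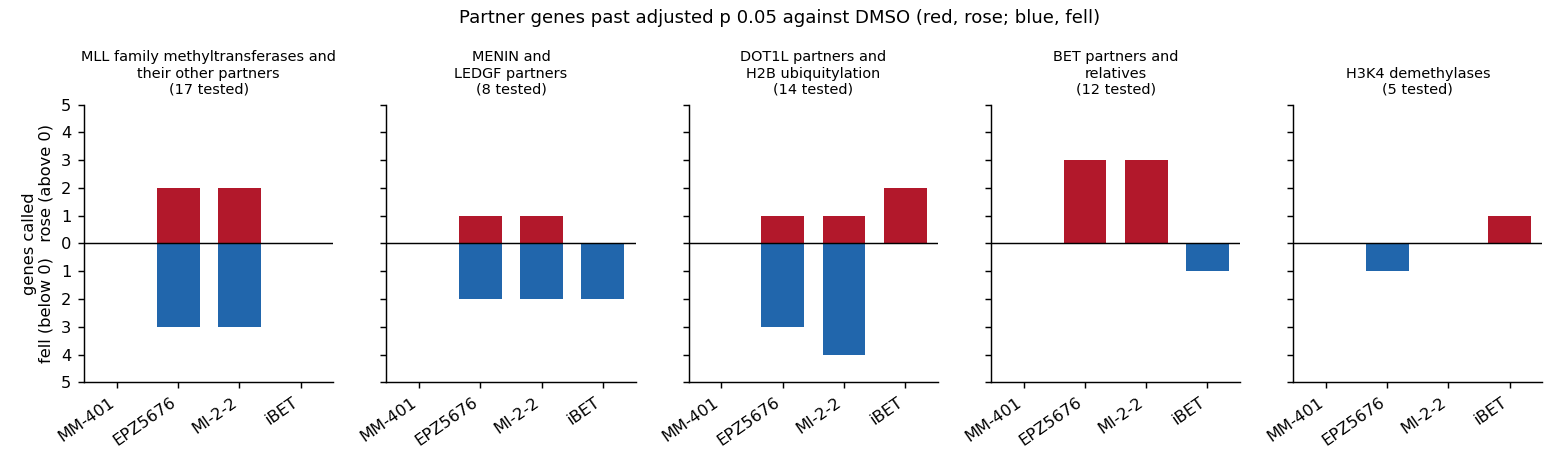
Number of partner genes in each of 5 lists that passed an adjusted p of 0.05 against DMSO, with red bars above 0 for genes that rose and blue bars below 0 for genes that fell. MM-401 has no bar in any list, and the tallest is the 4 genes that fell with MI-2-2 among the 14 DOT1L partners and H2B ubiquitylation genes.

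Against the mean of the other 3 inhibitors, the leading partners were largely these genes. For MM-401 they were Tasp1 (log2 difference 0.68) and Bod1 (0.52), Hdgf (0.77) and Cdca7l (0.53), Mllt1 (0.74) and Ube2b (-0.67), and Whsc1l1 (-0.51) and Jmjd6 (0.50). For EPZ5676 they were Tasp1 (-0.68), Setd1a (-0.37), Hdgfrp2 (-0.32), Jund (0.64), Leo1 (-0.50) and Ube2a (-0.55). For MI-2-2 they were Tasp1 (-0.66), Ncoa6 (0.35), Jund (1.22), Cdca7l (-0.56), Ctr9 (-0.74) and Mllt1 (-0.53). For iBET they were Ncoa6 (-0.40), Tasp1 (0.66), Jund (-1.02), Hdgfrp2 (0.30), Ctr9, Ube2a (0.80), Hexim1, Jmjd6 (-0.49) and Kdm1b (0.93). The adjusted p-values of these differences lay at or below 0.0495 (edgeR), and the demethylase next to Kdm1b was Kdm1a (0.30, adjusted p = 0.15).

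Across the 10 libraries each gene of the set had close companions among the 12971 tested genes, by Pearson's r of log2 CPM. Dpy30 was most like Acy1 (r = 0.991) and Ppil1 (0.986), and Ash2l most like Atic (0.988) and Tmem70 (0.987). Brd2 was most like Kdm1b and Socs2 (0.981 each), Psip1 like Lrp11 (0.98) and Marc2 (0.977), and Dot1l like D3Ertd254e and Nup210 (0.98 each). Wdr5 was most like Ctcf (0.965) and Tet3 (0.963), Rbbp5 like Tubgcp2 (0.963) and Zfp451 (0.951), Men1 like Acly (0.936) and Pfkl (0.932), and Brd3 like Dtx3l (0.93) and Csn2 (0.929). Within the set the highest correlations were those of Rbbp5 with Psip1 (0.882) and with Ash2l (0.844), and Dot1l with Psip1 (0.836), while Brd3 correlated negatively with each of the other 8 (-0.188 to -0.75). These values are descriptions over libraries that share 5 agents and 2 replicate numbers.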

How the data were processed

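Per the labels, RNA libraries (Illumina TruSeq) were made from MAF9 cells after 4 days with each agent, and the submitters' processing notes name TopHat2, Subread, DESeq and mm9, with no versions. The deposited values are whole-number read counts per gene, not normalized by the authors, in 1 table of 24015 genes by symbol. Whether counting used strand, and how reads shared by related genes were assigned, is not given in the sources used here. No read was aligned again.

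Counts were tested with edgeR 4.0.16 under R 4.3.3, with low counts removed by filterByExpr and TMM scaling (glmQLFit, glmQLFTest), in 1 fit of 10 libraries with 1 coefficient per agent, and p-values were adjusted by the Benjamini-Hochberg method over 12971 genes, with a threshold of 0.05. Standard errors were taken from the F statistic, as the absolute log2 fold change over the root of F. In the shallowest library 1 read was 0.049 CPM. Correlations used log2 CPM with a prior count of 2. Libraries were grouped by their titles. Libraries of the same replicate number deviated together in each of 10 pairs of groups (r = 0.278 to 0.666), so a fit with the replicate number as a block was made too. Other alternatives were total-count scaling, DESeq2 1.42.0 size factors and test, no filter, at least 100 reads in 2 libraries, leaving out each library, a fit of the 8 inhibitor libraries alone (added after the values had been seen) and the 2-fold rule (0.1 CPM added, a mean of at least 1 CPM).

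The 9 genes were named for the drug targets, with no threshold on values, but they, the partner lists, the markers and the tests were chosen with earlier results of these data known. Each of the 9 genes is named, with the 2 genes of each partner list that had the smallest adjusted p in a comparison where any passed, and the 2 genes most correlated with each of the 9. Lengths came from GENCODE M21. The deposited table holds no coordinates, and promoter windows are from RefSeq on GRCm38.p6, matched by symbol.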

Additional observations from a re-analysis of the deposited data

How the results depend on the processing

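Each of the 9 genes in each of the 8 comparisons was recomputed under the 6 other settings of the whole table. Of the calls, 105 values kept theirs and 9 lost it, 10 values newly passed, and no called value changed sign. Of the new passes 6 came with total-count scaling (Rbbp5 with EPZ5676 against DMSO, and against the other 3 inhibitors Ash2l and Dot1l with MM-401, Dpy30 and Psip1 with EPZ5676 and Brd2 with MI-2-2). Leaving out 1 library kept 53 called values, lost 55 and added 4. The sign changes among values given above were both for MM-401 against DMSO, in Wdr5 (-0.047 without DMSO replicate 1, 0.307 without DMSO replicate 2) and in Ash2l (-0.654 and 0.208 without the same libraries). Beyond left-out libraries, the lost calls were Brd3 with MI-2-2 (total-count scaling, against DMSO and against the other 3), and the differences from the other 3 inhibitors of Psip1 and Brd3 with MI-2-2 and of Dot1l with iBET. The causes were not tested.

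Against the other 3 inhibitors, 3 of the 9 genes passed for MM-401 with total-count scaling, the DESeq2 test and the replicate block. Of all genes 30.5%, 33.0% and 37.3% passed in these fits. For EPZ5676 against the others, 3 of the 9 passed with total-count scaling, where 29.2% of all genes did. For MI-2-2 against the others, 1 of the 9 passed without the filter, where 18.2% of all genes did. By the 2-fold rule the EPZ5676 and MI-2-2 comparisons with DMSO each had 1 and the iBET comparison 0. Over all genes, 286 passed for MM-401 against DMSO with the DESeq2 test and 749 by the 2-fold rule, against 0. For iBET 2830 passed with the DESeq2 test and 3088 with the replicate block, against 1806, and by the 2-fold rule 3224 passed for EPZ5676 and 3311 for MI-2-2, against 4942 and 5373. With the 8 inhibitor libraries fitted alone, 3 of the 9 passed against the other inhibitors for MM-401, 3 for EPZ5676 and 5 for MI-2-2, and over all genes 5556, 5024 and 5481, against 3473, 3119 and 3418. The block changed no other call on these 9 genes than those for Ash2l and Dot1l given above.

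When 1 library was left out, genes past the threshold against DMSO ranged from 0 to 1368 for MM-401, 2639 to 6808 for EPZ5676, 2772 to 7197 for MI-2-2 and 150 to 3720 for iBET. Against the other inhibitors they ranged from 343 to 2772 for MM-401, 839 to 2300 for EPZ5676, 547 to 2631 for MI-2-2 and 1348 to 3643 for iBET. Of the 9 genes 0 to 1, 2 to 5, 2 to 6 and 0 to 2 passed against DMSO in the order given above and 0 to 2, 0 to 1, 0 to 1 and 0 to 3 against the other inhibitors. A group with 1 library left was assumed to vary like the others.

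Total-count scaling lowered the share of higher genes among those past the threshold from 49.2% to 34.7% for EPZ5676 and from 48.9% to 37.1% for MI-2-2 against DMSO, and from 57.1% to 41% and 57.2% to 43.3% against the others. It raised it from 56.3% to 69% for MM-401 and from 50.7% to 61.3% for iBET against the others.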
